A study of Oreochromis niloticus with 14 samples.

Results

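The genes tet3 (ENSONIG00000015843) and hells (ENSONIG00000013166) were followed in the liver and testis of male Nile tilapia, Oreochromis niloticus, given benzo[a]pyrene (BaP). They are 2 of 17455 genes in the deposited tables, which hold 12902 genes for liver and 16930 for testis, with 12377 in both. They were chosen as genes of DNA methylation from the genes that the study lists as altered by BaP, so they were selected on their liver values, the difference between BaP and control livers. That difference is therefore given as a description, with no test, and the testis values are the ones that carry a test. The study also had qPCR primers for tet3, and does not name tet3 among the genes with a significant qPCR change.

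BaP is a polycyclic aromatic hydrocarbon of smoke and oil that cells convert to products that bind DNA. Fish were 1 year old and received 5 intraperitoneal injections, one every 6 days, with tissue taken on day 26, 2 days after the fifth. The BaP fish received 3 mg/kg per injection in DMSO and corn oil, and the control fish received DMSO and corn oil alone. Poly(A) RNA was sequenced from 4 BaP and 4 control livers and from 3 BaP and 3 control testes, 14 libraries in all. BaP and control fish were kept in separate aquaria, 2 per treatment with 12 fish in each, so BaP and aquarium cannot be told apart. The labels do not give the aquarium of each sequenced fish. The liver and testis titles share 6 fish numbers, but the labels do not state that both tissues came from the same fish.

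TET3 is a dioxygenase that oxidises 5-methylcytosine in DNA, the first step by which a methyl mark can be removed. HELLS, also called LSH, is a chromatin remodeller of the SNF2 family. In mammals it works with CDCA7 to open nucleosomal DNA to methyltransferases and is needed for normal methylation of repeats. In mammals HELLS is also known as a gene of dividing cells and germ cells. The proteins thus stand on opposite sides of the same mark, an eraser and a helper of its writers.

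Values are normalized CPM, the reads of a gene scaled to a common library size after correction by edgeR's TMM factor. The libraries held 12485109 to 42836246 reads on genes in liver and 26694344 to 30347667 in testis, and 3 reads corresponded to 0.0646 to 0.270 normalized CPM. The liver libraries correlated with each other at 0.881 or above and the testis libraries at 0.937 or above, in log2 values across genes. As a check of the tissue labels, 12 hepatocyte plasma protein genes summed to 70634 to 167065 normalized CPM in the livers. The 10 of them listed for testis summed to 36.1 to 654. No list of germ cell markers was available with gene names here, so the testis label rests on the near absence of liver genes and on the high level of dividing-cell genes.

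In liver, tet3 was lower and hells higher in BaP fish than in control fish. The tet3 values in BaP livers were 39.9, 22.0, 32.1 and 6.17 normalized CPM, in the order of replicates 1 to 4, against 61.5, 58.1, 40.2 and 53.2 in control livers. All 4 BaP livers lay below all 4 control livers, but the highest BaP liver and the lowest control liver almost met. Their counting intervals overlapped, at 36.7 to 43.3 for BaP replicate 1 and 37.5 to 43.2 for control replicate 3 (95%, exact Poisson, counting error only). The mean was 25.0 ± 14.6 in BaP livers and 53.3 ± 9.32 in control livers (SD, n = 4 each), a ratio of 0.470. The log2 fold change was -1.30 (SE 0.48), on log2 of the value plus 1.

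BaP replicate 4 stood far below the other BaP livers for tet3. It held 178 reads of tet3, and the other 3 BaP livers held between 357 and 794. Without it the log2 fold change was -0.77. The sign could not change when a single liver was left out, since the groups did not overlap. Leaving out any other liver gave between -1.61 and -1.23.

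The hells values in BaP livers were 8.70, 6.80, 13.9 and 16.2 normalized CPM, against 2.97, 3.22, 3.87 and 1.27 in control livers. The groups were clearly apart, with the lowest BaP liver at 6.80 and the highest control liver at 3.87. The reads behind these values were few, 126 to 469 in BaP livers and 59 to 104 in control livers. The mean was 11.4 ± 4.41 in BaP livers and 2.83 ± 1.11 in control livers (SD, n = 4 each), a ratio of 4.03. The log2 fold change was 1.68 (SE 0.33), and it lay between 1.44 and 1.88 when any single liver was left out.

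For tet3 the distance between groups came close to the spread within the BaP group, and for hells it was well above the spread of either group. As background, 4.05% of liver genes had all BaP livers above all control livers and 3.67% had them all below. The study's own threshold asked for a fold change over 1.5 at an unadjusted p under 0.05, and by this rule limma called 5.93% of liver genes higher with BaP and 6.07% lower. At an adjusted p under 0.05 limma called 9 liver genes, 0.0698% of those tested. Nothing about the 2 genes is read from these shares, since their liver values chose them. In whole tissue, fewer cells of a type and less RNA per cell cannot be told apart.

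**Figure D1:**
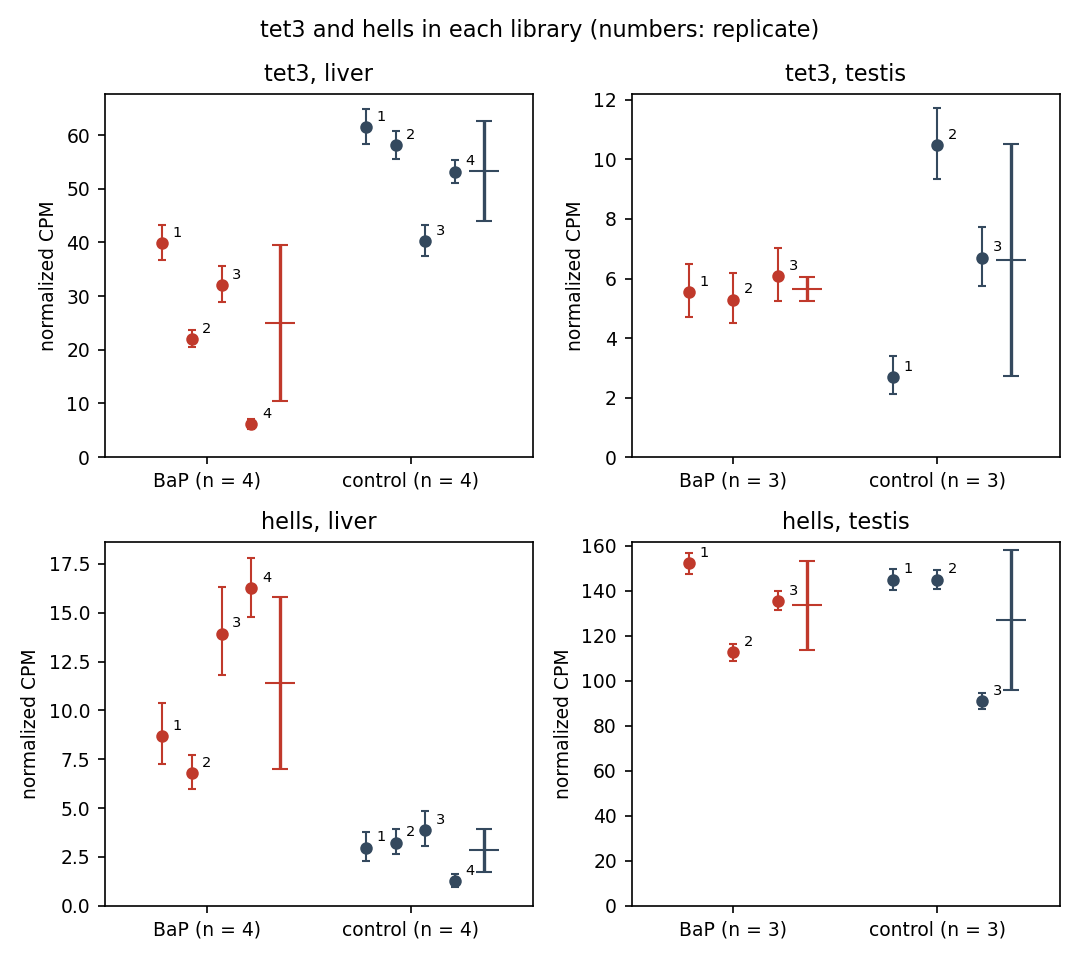
Normalized CPM of tet3 (upper row) and hells (lower row) in each liver (left) and testis (right) library, BaP in red and control in dark blue, with replicate numbers; small bars are 95% Poisson intervals and the wide bar beside each group is its mean and SD. In liver all BaP values of tet3 lie below and all those of hells above the control values, while in testis the groups overlap for both genes.

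In testis neither gene differed between BaP and control fish beyond the spread between fish. The tet3 values were 5.54, 5.29 and 6.09 normalized CPM in BaP testes, against 2.69, 10.5 and 6.70 in control testes. The 3 BaP testes lay close together and inside the range of the control testes. The mean was 5.64 ± 0.411 in BaP testes and 6.63 ± 3.89 in control testes (SD, n = 3 each). The log2 fold change was -0.05 (SE 0.40), with a 95% interval of -1.01 to 0.90, and limma gave an unadjusted p of 0.896 and an adjusted p of 1.00 (Benjamini-Hochberg over all testis genes). An exact two-sided permutation test of tet3 in testis gave p = 0.9, where 3 fish against 3 cannot go below 0.1.

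The interval for tet3 in testis allows a fold between 0.496 and 1.87 in the value plus 1. A change of up to about that size in either direction is not excluded by these fish. At this low level the limits for the fold of tet3 itself are wider. The sign rested on single control testes. It turned to 0.31 without control replicate 2 and to 0.03 without control replicate 3, while without control replicate 1 it was -0.50. Over the 14 alternatives the unadjusted p ran from 0.0780 to 0.988 and the adjusted p from 0.83 to 1.00 (limma, edgeR or DESeq2).

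The hells values were 152, 113 and 135 normalized CPM in BaP testes, against 145, 145 and 90.9 in control testes. The highest value was from a BaP testis and the lowest from a control testis, and the others were intermixed. The mean was 133 ± 19.8 in BaP testes and 127 ± 31.2 in control testes (SD, n = 3 each). The log2 fold change was 0.09 (SE 0.26), with a 95% interval of -0.52 to 0.70, and limma gave an unadjusted p of 0.728 and an adjusted p of 1.00 (Benjamini-Hochberg). An exact two-sided permutation test gave p = 0.8.

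Depth was not what limited hells in testis, where each library held 2483 to 4181 reads of it. The interval for hells in testis allows a fold of 0.699 to 1.63 in the value plus 1. The sign turned to -0.01 without BaP replicate 1 and to -0.13 without control replicate 3. Over the 14 alternatives the unadjusted p ran from 0.486 to 0.984 and the adjusted p from 0.893 to 1.00. The difference between the tissues was not tested, because the liver values chose the genes. Across all testis genes, limma called 1 at an adjusted p under 0.05 (0.00591%) and 369 at an unadjusted p under 0.05 and a fold over 1.5 (2.18%), and neither tet3 nor hells was among them.

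The levels of the 2 genes ran in opposite directions between the tissues. The tables were normalized separately, so levels across them are only approximate. The mean of hells in testis was 11.7 times its mean in liver among BaP fish and 44.8 times among control fish. For tet3 the liver mean was 4.44 times the testis mean among BaP fish and 8.04 times among control fish. Among the 12377 genes in both tables, the difference of control testis minus control liver for hells, 5.08 on the log2 scale, was above that of 97.1% of genes. That of tet3, -2.96, was above that of 4.27%, where the median gene was at 1.39. For both genes the mean of the BaP livers lay nearer to testis than that of the control livers. This restates the liver difference that chose the genes and is a description only. The hells level in the highest BaP liver, 16.2, was still far below the lowest testis, 90.9.

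The ratio of hells to tet3 within a library does not depend on how that library was scaled. It was 0.218, 0.309, 0.434 and 2.63 in BaP livers, against 0.0484, 0.0554, 0.0962 and 0.0239 in control livers. BaP replicate 4 was the only liver with a ratio above 1, and it held both the lowest tet3 and the highest hells of all livers. The other 3 BaP livers also lay above every control liver. In testis the ratio was 27.4, 21.3 and 22.2 in BaP fish, against 53.8, 13.8 and 13.6 in control fish, so the BaP testes again lay within the control range. The ratio compares these 2 genes across libraries and not their absolute amounts, since transcript length was not taken into account. The liver ratios are built from the values that chose the genes and are a description only.

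**Figure D2:**
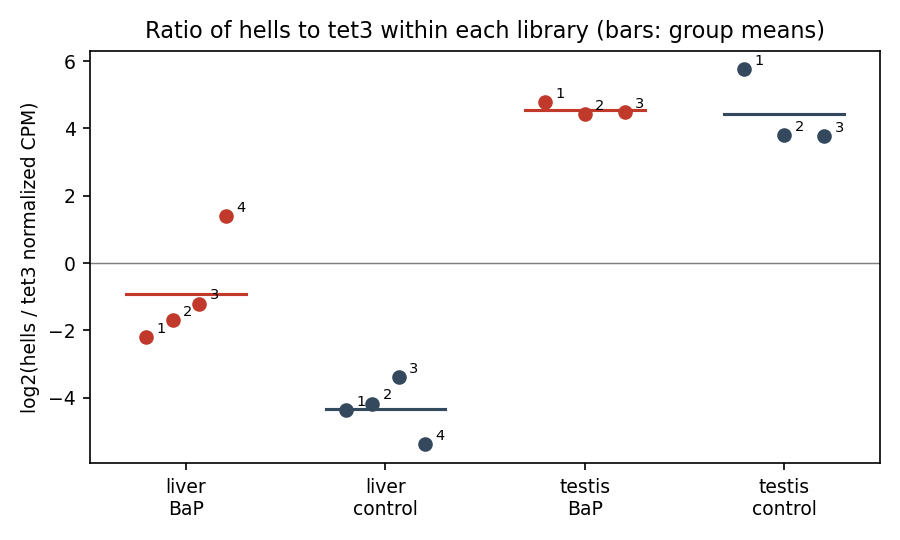
Log2 of the ratio of hells to tet3 normalized CPM in each library, by tissue and group, with BaP in red left of control in dark blue, replicate numbers beside the points and lines at the group means. BaP livers lie above control livers without overlap, with BaP replicate 4 alone above 0, and in testis the control values span the BaP values.

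The spread between fish also differed by gene and group. In BaP livers the SD of tet3 was 1.12 on the log2 scale, larger than that of 97.5% of the 4032 genes of similar level, whose median SD was 0.303. In control livers the SD of tet3 was 0.266, larger than that of 32.7% of genes of similar level. In testis the order was turned round, with an SD of 0.088 in BaP fish and 0.830 in control fish. For hells the SD was 0.533 in BaP livers and 0.484 in control livers, and 0.217 in BaP testes and 0.385 in control testes. The spread of tet3 in BaP livers rested on replicate 4, and without it the SD was 0.42. That of tet3 in control testes was 0.41 without replicate 1, and that of hells in control livers 0.15 without replicate 4. No test of the spread was made.

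Because HELLS is a gene of dividing cells, its values were set beside 21 named genes of cell division. Between the liver groups these genes ran the other way from hells, but within the groups there was no single order. Their summed level was 25.6, 33.8, 41.2 and 36.9 normalized CPM in BaP livers, against 65.4, 161, 29.4 and 313 in control livers (replicates 1 to 4). Control replicate 4, with the highest sum, had the lowest hells of all livers at 1.27, and control replicate 3, with the lowest control sum, had the highest control value of hells at 3.87. Control replicate 2, however, was above control replicate 1 in both, and the BaP livers with the higher sums, replicates 3 and 4, had the higher hells. The 21 genes are named only through the study's list of altered genes. All 21 genes had a negative log2 fold change in liver, with a median of -1.11 against 0.02 over all liver genes, and 9 of them passed the unadjusted p and fold threshold as lower (6.07% of all liver genes did) and 0 at an adjusted p under 0.05 (limma). The kinase plk1, which drives mitosis, averaged 0.851 ± 0.465 normalized CPM in BaP livers and 6.80 ± 7.22 in control livers (SD, n = 4 each), with overlapping groups. At most 1 of the 21 genes was at 0 in any liver. All 21 stayed lower when any single liver was left out, but the number called lower was 2 without control replicate 2, 5 without control replicate 4, BaP replicate 1 or BaP replicate 4, and 20 without control replicate 3.

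In testis the same 21 genes summed to 8556 to 9713 normalized CPM in BaP fish and 6906 to 11889 in control fish. There 11 had a positive and 10 a negative log2 fold change, with a median of 0.00 against -0.02 over all testis genes, and 0 passed either threshold. The testis with the lowest sum, control replicate 3, also had the lowest hells. The one with the highest sum, control replicate 1, had 145 normalized CPM of hells, equal to that of control replicate 2 to 3 digits. The part of dividing cells in the values of hells was not tested.

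**Figure D3:**
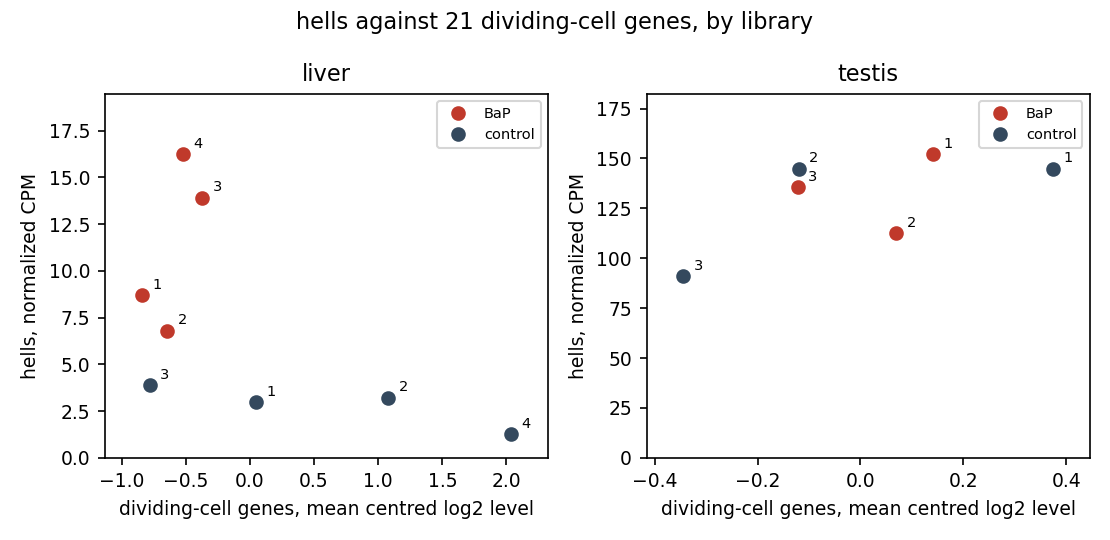
Normalized CPM of hells (vertical) against the mean level of 21 dividing-cell genes, in log2 centred on the tissue mean (horizontal), in each liver (left) and testis (right), BaP in red and control in dark blue with replicate numbers. In liver the 4 BaP livers have higher hells than every control liver, at a low dividing-cell level. Control replicate 3 lies at a similarly low dividing-cell level with hells of 3.87, and the other control livers have low hells at higher dividing-cell levels.

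Genes of DNA replication, the process that HELLS accompanies in dividing cells, were split in liver. Of 6 that carry a name, the DNA ligase lig1 averaged 3.79 ± 1.06 normalized CPM in BaP livers and 1.85 ± 0.186 in control livers. Its log2 fold change was 0.72 with no overlap, and 4.05% of all liver genes had all BaP livers above. The helicase subunit mcm7 averaged 30.8 ± 20.6 in BaP livers and 120 ± 57.4 in control livers (SD, n = 4 each), with a log2 fold change of -1.94. The topoisomerase top2a, at -1.08, did not pass the unadjusted p and fold threshold. In all, 2 of the 6 were called higher and 2 lower in liver at that threshold (5.93% and 6.07% of all liver genes), 0 at an adjusted p under 0.05 (limma), and 0 in testis at either. Those called higher were lig1 and hat1, and those called lower were mcm7 and atad2. Of the 6, hat1 and the 2 genes named atad2 or ATAD2 are chromatin genes and not parts of the copying machinery. The 2 called higher stayed so whichever liver was left out, whereas the number lower was 1 without BaP replicate 1 or control replicate 2 or 4, 3 without BaP replicate 2 and 4 without control replicate 3. The study groups 11 genes, hells included, by the centromeric region. Of the other 10, 2 were called higher and 5 lower in liver (5.93% and 6.07% of all liver genes), with a median of -1.05, and 0 in testis. They are named through the study's list of altered genes, so the liver counts follow in large part from that list. Of those called higher, DCTN6 ranged from 0 to 22.3 normalized CPM in BaP livers and from 0 to 1.72 in control livers. Without control replicate 2 or 4 or BaP replicate 1 the number lower in liver was 2, without BaP replicate 2 or 4 it was 3, and without control replicate 3 it was 8. The number called higher stayed at 2 without BaP replicate 1 or control replicate 1, and was 1 without any other liver. This set overlaps with the 21 genes of cell division, which also hold MKI67, bub1, cenpf, ndc80, INCENP and plk1. Of these, bub1, cenpf, INCENP and plk1 were among those called lower, so the 2 sets are not separate comparisons.

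Other cell types could change the share of liver RNA from which both genes were read. The 12 hepatocyte plasma protein genes summed to 106755 to 167065 normalized CPM in BaP livers and 70634 to 111820 in control livers, 8 of 12 were called higher at the unadjusted p and fold threshold (5.93% of all liver genes were, and 4 to 10 of the 12 when a single liver was left out), and their median log2 fold change was 0.74. These genes, too, have names only through the study's list. The 7 red cell genes summed to 173 to 857 in BaP livers and 192 to 3325 in control livers. The 10 exocrine pancreas genes, from tissue that lies within the liver of many fish, summed to 30669 to 35095 in BaP livers and 11781 to 37268 in control livers. No gene of these 3 lists was at 0 in any liver. In testis the pancreas genes summed to 26.0 to 283 in BaP fish and 7.05 to 12.9 in control fish. At that threshold 7 of 10 were called higher in testis, where 2.18% of all genes were called in either direction. With a single testis left out, 2 to 10 of the 10 were called higher. The pancreas genes, too, are named only through the study's list of altered genes, and 1 of the 10 was called in liver. Their testis count may thus follow in large part from that list and is not independent evidence. The hepatocyte genes in testis summed to 79.7, 654 and 60.8 in BaP fish (replicates 1 to 3) and 36.1 to 53.7 in control fish. The upper end in BaP fish rested on replicate 2 alone. The red cell genes in testis summed to 185, 144 and 176 in BaP fish, against 125, 748 and 525 in control fish. The control testes stood in the same order for tet3, but the BaP testes did not. The part of these cells in the values of tet3 and hells was not tested.

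The machinery around the 2 genes could be followed only where a gene carries a name. Of 43 symbols of DNA methyltransferases, their partners, TET enzymes, methyl-CpG binders and base excision factors, 7 were named, tet3 and hells included. The names come from the study's list of altered genes, so liver counts over named genes follow in large part from how that list was made. The RefSeq table of the tilapia assembly O_niloticus_UMD_NMBU lists 1 gene each for tet1, tet2, tet3, hells, uhrf1, cdca7a and zbtb24. It holds an Ensembl ID for 0 of its 42644 genes, so the tilapia partners of the 2 genes were not analysed here.

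Of the other 5 named genes of the machinery, 3 were called higher and 1 lower in BaP livers at the unadjusted p and fold threshold. By that rule 5.93% of all liver genes were called higher and 6.07% lower. At an adjusted p under 0.05 limma called 0 of the 5. When a single liver was left out, 2 or 3 were called higher and 0 to 2 lower. GADD45B, a stress-induced protein that in mammals has been linked to active demethylation, averaged 789 ± 483 normalized CPM in BaP livers and 316 ± 109 in control livers (SD, n = 4 each), with overlapping groups. The CXXC zinc finger genes cxxc5a and cxxc5b had log2 fold changes of 0.80 each, and their groups overlapped too. UHRF2, a relative of the factor that guides the maintenance methyltransferase, averaged 17.7 ± 3.62 in BaP livers and 28.9 ± 4.76 in control livers (SD, n = 4 each). Its groups did not overlap, and 3.67% of all liver genes had all BaP livers below all control livers. The methyl-CpG binding family gene mbd3a, at a log2 fold change of -0.72 (SE 0.45), did not pass. In testis 0 of the 5 passed either threshold, with log2 fold changes between -0.31 and 0.36.

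Methyl groups for DNA come from S-adenosylmethionine, and 2 of 16 symbols of its supply were named. The methionine adenosyltransferase subunit mat2b averaged 27.4 ± 2.07 normalized CPM in BaP livers and 17.3 ± 1.35 in control livers. The catalytic gene mat2aa went the other way, with 26.0 ± 5.02 in BaP livers and 45.1 ± 17.6 in control livers (SD, n = 4 each). Neither overlapped between liver groups, where 4.05% of all liver genes had all BaP livers above and 3.67% all below. At the unadjusted p and fold threshold mat2b was called higher and mat2aa lower (5.93% and 6.07% of all liver genes). At an adjusted p under 0.05 limma called 0 of them. The call of mat2aa was lost without BaP replicate 3 or 4 or control replicate 2 or 4. That of mat2b held without any single liver. It was lost with scaling by total reads, where its log2 fold change of 0.44 was under the fold threshold. In testis their log2 fold changes were 0.15 and 0.21, and 0 passed either threshold.

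The study lists 8 other genes with tet3 under DNA methylation, most of which are not known to act on DNA. Of these, METTL18, mettl21a, trmt11 and HNMT were called higher in BaP livers, at log2 fold changes of 0.92, 0.65, 0.61 and 1.38. Over all liver genes 5.93% were called higher and 6.07% lower at the same unadjusted p and fold threshold. METTL18 and mettl21a methylate proteins, trmt11 methylates transfer RNA and HNMT methylates histamine. The ribosomal RNA methyltransferase mettl5, with 4.25 ± 1.37 normalized CPM in BaP livers and 10.1 ± 4.70 in control livers (SD, n = 4 each), and the histone methyltransferase subunit dpy30, at a log2 fold change of -1.13, were called lower. The tRNA methyltransferase trmt44, at a log2 fold change of -0.87 (SE 0.60), and the sterol synthesis enzyme hmgcs1, at 1.01 (SE 0.59), did not pass. Each of these 2 rested on 1 library, as trmt44 was at -0.17 without control replicate 2 and hmgcs1 at 0.35 without BaP replicate 3. Leaving out a single liver, 2 or 3 genes were called higher and 1 or 2 lower. The fold changes of mettl21a and trmt11, which are low in liver, depended on the scale, at 1.75 and 1.23 with a pseudocount of 0.1, and at 2.12 to 2.13 and 1.39 to 1.40 with edgeR and DESeq2. The study chose these genes on the same samples, so their count is not independent evidence of a direction, and in testis 0 of the 8 passed either threshold.

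Enzymes of histone methylation, which in mammals works alongside DNA methylation, lay below control in BaP livers together with tet3. All 8 named of 17 symbols had a negative log2 fold change in liver, with a median of -0.84 against 0.02 over all genes, and 7 were called lower at the unadjusted p and fold threshold (6.07% of all liver genes were) and 0 at an adjusted p under 0.05 (limma). The histone demethylase kdm7aa averaged 8.10 ± 4.06 normalized CPM in BaP livers and 30.8 ± 20.0 in control livers (SD, n = 4 each), and BaP replicate 4 was again the lowest liver, at 3.26. These 8, too, are named only through the study's list of altered genes. Of the 8, 3 had all BaP livers below all control livers (3.67% of all liver genes), and 5 to 8 were called lower when any single liver was left out. In testis 2 had a positive and 6 a negative log2 fold change and 0 passed either threshold.

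**Figure D4:**
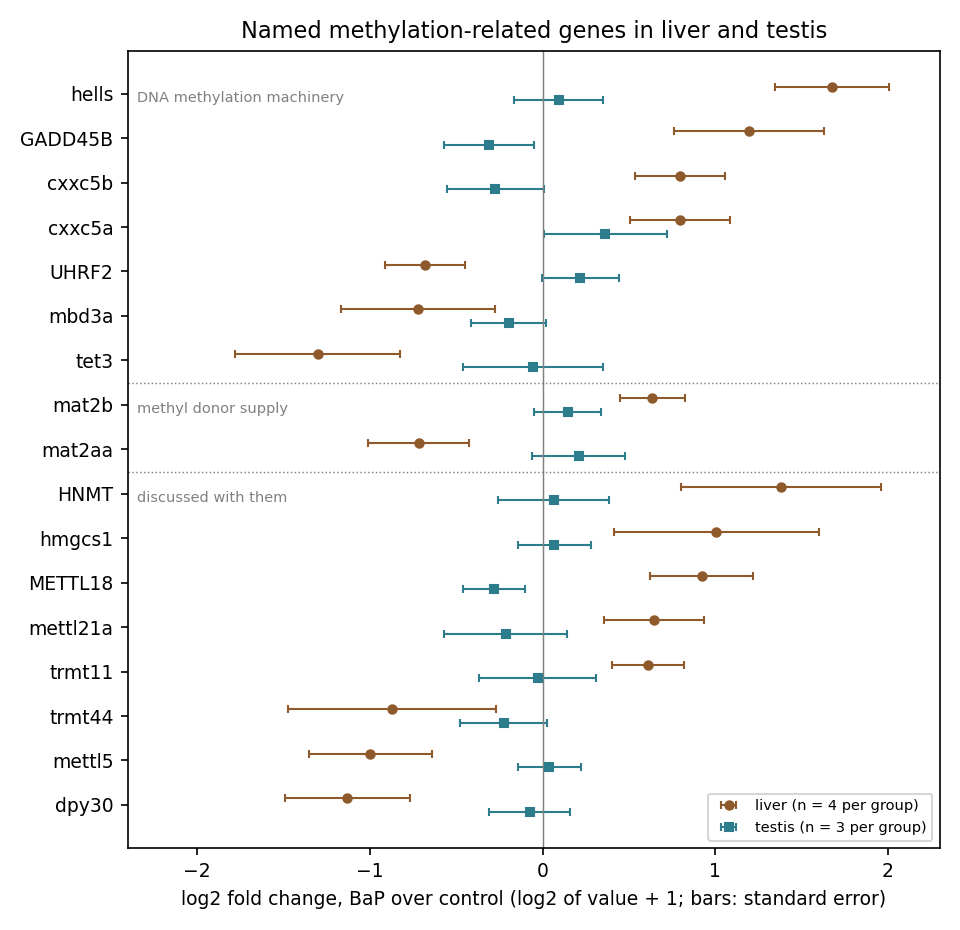
Log2 fold change of BaP over control (log2 of the value plus 1, bars are standard errors) for the named genes of the DNA methylation machinery, of methyl donor supply and those the study discusses with tet3, in liver (brown circles, n = 4 per group) and testis (blue squares, n = 3 per group). In liver hells lies at 1.68 and tet3 at -1.30, the ends of the liver points in limma's fit (edgeR and DESeq2 put mettl21a above hells, and mettl5, dpy30 and trmt44 below tet3), whereas the testis points lie between -0.31 and 0.36.

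Some genes followed tet3 or hells from fish to fish within the groups. Each gene's log2 value was centred on its own tissue and treatment group, and Pearson's r was taken over the 14 libraries with 1390 other named genes. The libraries share scaling and depth across genes, so r is a description. The genes named below were picked as the extremes of the 1390 over these same libraries. For tet3 the highest were the cholesterol transporter abca1b (0.90), the copper transporter atp7a (0.90), the insulin receptor adaptor grb10a (0.87), the activin receptor ACVR1B (0.84) and PFKFB1 (0.84), an enzyme that sets the level of a glycolysis activator. The lowest were the small GTPase ralba (-0.86), the caspase casp6 (-0.81) and the centrosome gene cep152 (-0.76). The median over the 1390 genes was 0.08.

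These values leaned on the libraries farthest from their group mean. For tet3 they were BaP liver replicate 4, at -1.60 on the log2 scale, and control testis replicate 1, at -0.90. Without both, r was 0.80 for abca1b, 0.69 for atp7a, 0.73 for grb10a, 0.49 for ACVR1B, 0.60 for PFKFB1, and it was -0.84 for ralba, -0.64 for casp6 and -0.63 for cep152. ACVR1B thus lost the most of the 5, and ralba almost nothing. The likeness of casp6 was a liver value, at -0.97 over the livers and -0.05 over the testes.

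For hells the highest were anapc2 (0.85), a subunit of the anaphase-promoting complex, the purine synthesis enzyme pfas (0.83), the N-terminal methyltransferase ntmt1 (0.81), nudc (0.81) and the ribosome maturation GTPase eftud1 (0.77). The lowest were the lysosome membrane gene LAMP2 (-0.86), the ubiquitin ligase nedd4l (-0.82) and pmp22b (-0.82). Without control liver replicate 4 and BaP liver replicate 2, the libraries farthest from their group mean for hells, r was 0.65 to 0.76 for the 5 highest and -0.75 to -0.68 for the 3 lowest. These genes were picked as the extremes over the same libraries, so r without 2 of them is a description and not independent support. The likeness to hells was weaker in testis for the 5 highest, at 0.56 to 0.72 over the testes against 0.85 to 0.90 over the livers. Over the testes r was -0.86 for LAMP2, -0.81 for nedd4l and -0.50 for pmp22b.

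The 2 genes were not among each other's most similar genes, with an r of -0.37 between them. That value also rested on few libraries, as it was 0.04 without BaP liver replicate 4 and control testis replicate 1, and -0.49 without the pair of livers named for hells. Of the title numbers shared by the tissues, number 11 had the lowest tet3 among BaP livers at 6.17, while its testis, at 5.54, was in the middle of the BaP testes. Number 18 had the lowest tet3 among control livers at 40.2 and the lowest among all testes at 2.69.

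**Figure D5:**
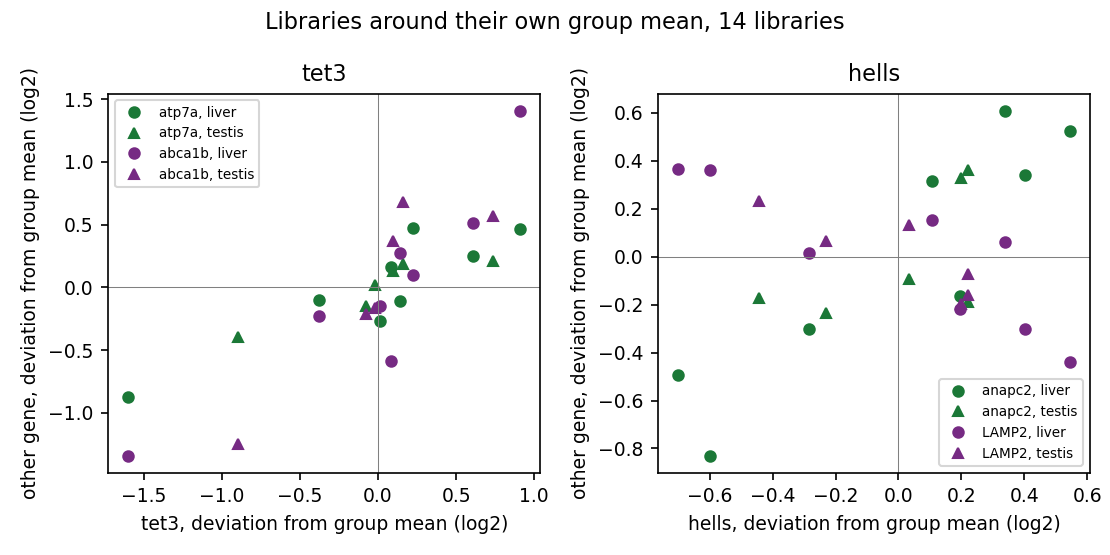
Deviation from the group mean, in log2, of 2 genes alike or unlike each of tet3 (left, against atp7a and abca1b) and hells (right, against anapc2 and LAMP2) in 14 libraries, with circles for liver and triangles for testis. For tet3 the point at -1.60 is BaP liver replicate 4. For hells anapc2 rises, more loosely in testis (r 0.61) than in liver (r 0.90), and LAMP2 falls in both tissues.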

How the data were processed

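RNA-Seq libraries of liver (4 BaP and 4 control fish) and testis (3 BaP and 3 control fish) were taken from one deposited table per tissue and grouped by tissue and treatment as in the labels. Per the study's methods and the submitters' processing notes, the authors trimmed the reads, aligned them with TopHat and used the exact test of edgeR for differential expression. The build, annotation and read counter are not given in the sources used here, nor is the use of strand, so antisense reads cannot be told apart. The deposited values are a normalized signal, which the authors made as CPM of a TMM-scaled library. Whole reads were recovered for 100% of values (tolerance 0.1 read), and the TMM factors were 0.858 to 1.19. There were 12485109 to 42836246 reads on genes per library.

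Differences were fitted per tissue with limma 3.58.1 (R 4.3.3) on log2 of the value plus 1, over all genes of the table, with Benjamini-Hochberg adjustment. The p-values measure the spread between these fish. They count fish as independent, although fish of a treatment shared aquaria. Alternatives were edgeR 4.0.16 (quasi-likelihood and exact tests on the recovered reads), DESeq2 1.42.0, its size factors, scaling by total reads, a pseudocount of 0.1, a filter (3 or more libraries with a value of at least 1), leaving out each library and a replicate block. Counts over the lists and the spread of the 2 genes without each library were added after seeing the data. Each fit was tested on simulated data.

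Gene names came from the study's supplementary list of 1526 genes, since the tables hold IDs only. The text names tet3 and hells, every named gene of the DNA methylation, methyl donor and study lists, a few examples from other lists, and the 5 most and 3 least alike named genes with a mean of at least 1 in both tables. From the other lists, kdm7aa was named after its values were seen. The members and the lists were chosen with earlier results of these data known. No sequence is shown, as none was supplied for these genes. A listed item is not reported here.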

Additional observations from a re-analysis of the deposited data

Results flagged for a closer look

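Neither tet3 nor hells held a library that stood apart from its group by Dixon's test, also tet3 in BaP replicate 4 of the liver. Among the 24 genes of methylation described, 4 of the 48 liver groups held a library far from the other 3, and chance flags about 1 in 20 groups. In BaP livers dpy30 was at 10.2 normalized CPM in replicate 4, the others being at 5.30 to 5.58. Also in BaP livers, hmgcs1 was at 132 in replicate 3, against 18.2 to 26.2 in the others. In control livers mettl21a was at 0.646 in replicate 1 and at 0.0523 to 0.124 in the others, which rests on 1 to 15 reads. In control livers, too, trmt44 was at 68.2 in replicate 2, against 5.95 to 13.1 in the others. Groups of 3 testes were not examined in this way.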

How the results depend on the processing

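In liver, tet3 was at -1.50 to -1.09 over the alternatives with all fish and at -1.61 to -0.77 when a single fish was left out. For hells the ranges were 1.51 to 2.02 and 1.44 to 1.88. The liver groups did not overlap for either gene, so leaving out a single fish could not change the sign. Scaling by total reads moved the median of all liver genes to -0.16 from 0.02 with TMM, and relative to that median tet3 was at -1.35 against -1.32 and hells at 1.67 against 1.66. The liver calls at the unadjusted p and fold threshold then split into 357 higher and 1366 lower, against 765 and 783, and the testis calls into 236 and 127, against 200 and 169. In testis, leaving out a single fish gave -0.50 to 0.31 for tet3 and -0.13 to 0.21 for hells.

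Counts over all genes depended strongly on the test. Against 9 liver genes at an adjusted p under 0.05, there were 0 with a pseudocount of 0.1, 5 with the quasi-likelihood test, 223 with the exact test and 443 with DESeq2, and 0 to 216 without a single fish, the 216 being without control replicate 3. At unadjusted p and fold, 1548 became 1116 to 2370, the 2370 also being without control replicate 3. Against 1 testis gene there were 0 with a pseudocount of 0.1, with total scaling and with the quasi-likelihood test, 49 with the exact test, 54 with DESeq2 and 0 without any single fish. At unadjusted p and fold, 369 became 282 to 829, the highest being 829 without BaP replicate 3, 784 without control replicate 1 and 567 without control replicate 3. At an unadjusted p under 0.05 limma gave 1745 liver and 426 testis genes. The causes were not tested.

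With the replicate block 2 liver genes and 0 testis genes passed at an adjusted p, 589 testis genes at unadjusted p and fold, and the testis p was 0.886 for tet3 and 0.714 for hells. The replicate numbers count the samples of a group, and the labels state no pairing by them. Deviations of same-numbered samples correlated at -0.02 to 0.20 in liver and -0.08 to 0.37 in testis. Not every sample correlated best with its own number, but the highest value of each tissue was from a same-numbered pair. These values therefore do not settle whether the numbers mark a block. Depth limits hells most in control livers, at 59 to 104 reads.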
